A study of Mus musculus with 6 samples.

Results

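Chemokines and their receptors were examined as a gene family in the mouse hippocampus: 57 protein-coding genes, chosen by name from the authors' comparison table (names beginning Ccl, Cxcl, Cx3cl, Xcl, Ccr, Cxcr, Cx3cr, Xcr or Ackr followed by a digit), of 18058 protein-coding genes and 30821 genes listed there. They comprised 35 ligands, 18 classical receptors and 4 atypical receptors. The naming rule used no measured value, although the table lists only genes with at least 1 count. The family and the lists below were, however, chosen with earlier results of these data known. A further 3 names (Cxcl11, Ccl19-ps1 and Ccl19-ps3) were left out because they are annotated as pseudogenes. RNA came from the hippocampus, not the injected field alone, of male mice of the C57BL/6J strain, each library from a single animal. In 3 animals (TAF15 OE) a TAF15 adeno-associated virus, whose name carries CaMKIIα, a promoter active in excitatory neurons, had been placed in the CA1 field on both sides at 8 weeks of age. The other 3 mice (Control) had received a control virus by the same surgery. The labels give 31 days for all 6 libraries without saying from when, name no other genotype, and do not say what the control virus carried.

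Chemokines are small secreted or membrane-bound proteins, named by the spacing of their first cysteines (CC, CXC, CX3C and XC), that guide cells along concentration gradients. Their receptors are G-protein-coupled and act mainly through the inhibitory Gi class, while the atypical receptors bind chemokines without this signalling and remove or redistribute them. In the healthy brain the best-known pair is fractalkine (Cx3cl1) on neurons and its receptor Cx3cr1 on microglia, and most inflammatory chemokines are scarce until glia or entering leukocytes make them.

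The libraries held between 14965464 and 16067000 counts. Taf15 had 3897, 3661 and 4477 counts in TAF15 OE 1, 2 and 3, against 908, 958 and 795 in Control 1, 2 and 3 (log2 fold change 2.095, SE 0.0861, edgeR adjusted p = 4.97e-07), so the overexpressed gene followed the labels, although these counts do not separate the vector's transcript from the mouse's own. TAF15 OE 1 and Control 1 stood apart from the other libraries on the second principal component (21.7% of the variance), with few choroid plexus transcripts: the markers summed to 1599, 4664 and 5178 CPM in libraries 1, 2 and 3 of TAF15 OE and to 154, 4779 and 4458 CPM in libraries 1, 2 and 3 of Control. CPM here is a normalised read count, scaled by each library's effective size. TAF15 OE 1 also held the most antigen-presentation transcript, as Cd74 measured 562 CPM there, 59.2 and 118 CPM in the other TAF15 OE libraries, and 14.1 to 16.6 CPM in Control. Tested members whose call or direction rests on these libraries are given with and without them.

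Of the 57 members, 27 had enough counts to be tested and 30 did not. The test was edgeR's quasi-likelihood F-test, with p adjusted by Benjamini-Hochberg over all 16758 tested genes and called below 0.05. It called 8 members higher (5 ligands and 3 receptors) and 1 ligand lower, and 18 tested members were not called (11 ligands, 3 receptors and all 4 atypical receptors). Over all tested genes 9.32% were called higher and 5.95% lower, shares to set beside the marker list counts below too. The filter keeps genes that reach its minimum in 3 libraries. A scarce gene, of the members or of the marker lists below, can therefore pass through TAF15 OE alone. The share among the tested members is a description only. Their median log2 fold change was 1.06, against 0.03 over all tested genes, and 23 of 27 were positive, against 53.7% of all tested genes. The groups did not overlap, with TAF15 OE higher, in 12 tested members, against 19.1% of all tested genes, and with TAF15 OE lower in 1, against 15.5%. The count of higher members depended on the library set: it was 13 without TAF15 OE 2, of 31 tested, and 8 without TAF15 OE 1 and Control 1 together, of 28 tested. That last set called Cxcl16 and did not call Ccl2. Of its 8 members, 7 were also called on all libraries, Cxcr4 among them.

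**Figure D1:**
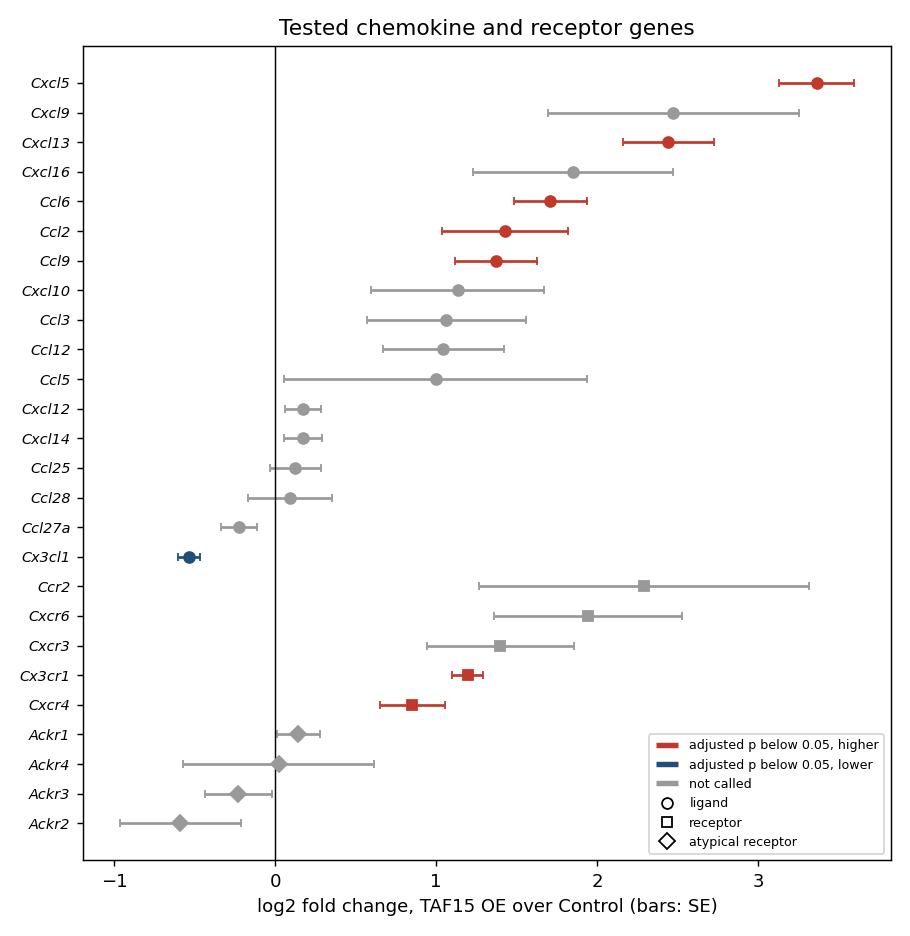
Log2 fold change, TAF15 OE over Control, for 26 of the 27 tested members, with bars of 1 SE; circles are ligands, squares receptors and diamonds atypical receptors. Of these, the 7 called higher lie between 0.85 and 3.36, Cx3cl1, the called ligand on the other side of 0, lies at -0.54, and the 4 atypical receptors are grey, not called, between -0.59 and 0.14.

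Among the tested ligands, Cxcl5, which in mouse attracts neutrophils through Cxcr2, had the largest change. Cxcl5 (ENSMUSG00000029371; GRCm38 chromosome 5, 90759360 to 90761624, on the plus strand) was counted 220, 159 and 179 times in TAF15 OE 1, 2 and 3, against 15, 22 and 14 in Control 1, 2 and 3. All 3 TAF15 OE libraries were far above all 3 Control libraries, with 11.8 ± 1.97 CPM in TAF15 OE and 1.14 ± 0.282 CPM in Control (mean ± SD over the 3 libraries of a group, here and below). The rise was 10.3-fold (log2 fold change 3.36, SE 0.23, edgeR adjusted p = 3.25e-05). The log2 fold change lay between 3.19 and 3.58 with each library left out in turn, and was called under all 17 alternatives.

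The other ligands of Cxcr2 were too scarce to test. Cxcl1 had 6, 3 and 2 counts in TAF15 OE 1, 2 and 3, against 1, 6 and 0 in Control 1, 2 and 3, Cxcl2 had at most 1 count in any library, and Cxcl3 had 3 counts in TAF15 OE 3 and 0 elsewhere. Fitted without a filter, the log2 fold change was 0.53 (SE 0.97) for Cxcl1, -0.87 (SE 1.85) for Cxcl2 and 3.1 (SE 2.1) for Cxcl3, errors too wide to tell a change from none. These genes lie in the same 146.6 kb of chromosome 5 as Cxcl5. Cxcr2 itself, the neutrophil receptor for all of them, had 0 counts in each TAF15 OE library, against 1, 2 and 1 in Control 1, 2 and 3. A count of 0 allows up to 3 counts, or 0.182 to 0.197 CPM in these libraries, and such limits cover counting error only. Of 12 neutrophil markers only Csf3r, a receptor that microglia share, was tested (called higher, log2 fold change 1.12), Ly6g had 1 count in all, and S100a8 had 6, 1 and 0 counts in TAF15 OE 1, 2 and 3, against 2, 4 and 5 in Control 1, 2 and 3. Elane was not listed with a count. Reads of so closely related genes may be divided unevenly between them, since no source used here names the counter.

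The promoters of the neighbouring Cxcr2 ligands are shown because they carry letters of the NF-kappaB motif at similar distances from the gene start, although the genes had few counts in either group. RefSeq promoters (GRCm38.p6, 250 bases before to 50 after the start) were matched for 44 of 57 members. Among those not matched were Ccl2, Ccl4, Ccl5, Ccl7, Ccl11, Ccl24, Ccr7, Ccr10, Cxcl5, Cxcl16, Cxcl17 and Cxcr5. Capitals mark GGG, any 2 bases, then TTTCC, on either strand, in stretches from 110 to 51 bases before the start on the plus strand (chr5:90891135-90891194, chr5:90903789-90903848 and chr5:90785991-90786050, in the order printed).
Cxcl1: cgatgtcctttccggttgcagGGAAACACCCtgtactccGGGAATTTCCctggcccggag
Cxcl2: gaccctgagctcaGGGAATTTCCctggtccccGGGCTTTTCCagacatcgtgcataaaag
Cxcl3: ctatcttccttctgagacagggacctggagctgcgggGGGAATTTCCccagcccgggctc
Cxcl1 and Cxcl2 each hold 2 matches here and Cxcl3 holds 1. This pattern was found in 5 of 44 member promoters (Ccl9, Ccr3, Cxcl1, Cxcl2 and Cxcl3), or 11.4%, against 1.62% of 27025 promoters. It is 1 fixed form, so a member without a match, Cxcl10 among them, may hold other forms of the motif. In all, 4 motifs were searched, with the interferon-response letters given below. TTCNNNGAA (GAS, N any base) was in 9.09% of member promoters, against 8.47% of all. TGANTCA (AP-1) was in 15.9%, against 7.93%. A match describes letters and is not a bound site, and related genes share sequence, so these members are not independent.

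Cxcl13, which attracts B cells through Cxcr5, was the ligand with the next largest called change. It had 136, 92 and 136 counts in TAF15 OE 1, 2 and 3, against 12, 27 and 24 in Control 1, 2 and 3, and the groups were far apart. It averaged 7.66 ± 1.42 CPM in TAF15 OE and 1.40 ± 0.517 CPM in Control, a 5.44-fold rise (log2 fold change 2.44, SE 0.28, edgeR adjusted p = 6.03e-04). Its receptor Cxcr5 had 13, 1 and 1 counts in TAF15 OE 1, 2 and 3, against 6, 0 and 0 in Control 1, 2 and 3, too few to test. B and plasma cell markers summed to 299.9, 484 and 925 CPM in TAF15 OE 1, 2 and 3, against 222, 37.1 and 56.0 CPM in Control 1, 2 and 3. Most of each sum came from Igkc, Ighm and Jchain, which were not called (edgeR adjusted p = 0.298, 0.0568 and 0.132). Igkc alone had 143, 256 and 634 CPM in TAF15 OE 1, 2 and 3, against 145, 10.5 and 16.5 CPM in Control 1, 2 and 3, and overlapped. Of 9 B and plasma cell markers tested, 4 were called higher (Sdc1, Cd79a, Mzb1 and Cd79b), against 9.32% of all tested genes. Their part in the Cxcl13 result was not tested.

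Of the CC ligands, Ccl6 and Ccl9, mouse chemokines that bind Ccr1 and are made by myeloid cells, rose together. Ccl6 stood at 6.65, 5.79 and 6.25 CPM in TAF15 OE 1, 2 and 3, against 2.11, 2.12 and 1.47 CPM in Control 1, 2 and 3. Ccl9 stood at 4.15, 4.21 and 3.46 CPM in TAF15 OE 1, 2 and 3, against 1.29, 1.86 and 1.40 CPM in Control 1, 2 and 3. Neither gene's groups overlapped, and TAF15 OE 1 was not set apart for either. The rise was 3.27-fold for Ccl6 (log2 fold change 1.71, SE 0.23, edgeR adjusted p = 0.00109) and 2.59-fold for Ccl9 (1.37, SE 0.26, adjusted p = 0.0056). They are neighbours on the minus strand of chromosome 11, at 83587882 to 83593087 and 83572919 to 83578636 (GRCm38), in a group of 138.9 kb that also holds Ccl5, Ccl3 and Ccl4. Ccr1 was too scarce to test, with 9, 5 and 7 counts in TAF15 OE 1, 2 and 3, against 0, 3 and 1 in Control 1, 2 and 3. The Ccl9 promoter is shown as the called member, among those with a matched promoter, whose window held the NF-kappaB pattern searched. The match is on the other strand, in capitals, at chr11:83578637-83578696, minus strand, the 60 bases before the start.
Ccl9: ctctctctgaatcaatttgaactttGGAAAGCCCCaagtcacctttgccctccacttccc

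Ccl2, the main attractant of Ccr2-bearing monocytes, was called higher on few counts. It had 31, 15 and 26 counts in TAF15 OE 1, 2 and 3, against 8, 9 and 8 in Control 1, 2 and 3. All TAF15 OE libraries exceeded all Control libraries, by least in TAF15 OE 2, and the rise was 2.70-fold (log2 fold change 1.43, SE 0.39, edgeR adjusted p = 0.0306). The call did not hold without TAF15 OE 1 (adjusted p = 0.0978), TAF15 OE 3 (0.0814), Control 1 (0.0912), Control 2 (0.0855) or Control 3 (0.0916), nor with DESeq2 (0.0709), which called 9.05% of all tested genes higher. Ccr2 was high in TAF15 OE 1 alone, at 3.77, 0.460 and 0.789 CPM in TAF15 OE 1, 2 and 3, against 0.136, 0.730 and 0.133 CPM in Control 1, 2 and 3. It was not called by edgeR (log2 fold change 2.29, SE 1.03, adjusted p = 0.195), though DESeq2 called it. Of 6 monocyte markers tested, 2 were called higher (Vcan and Ly6c2), and the list's summed level overlapped, at 153 to 237 CPM in TAF15 OE and 184 to 236 CPM in Control. That overlap rested on Nr4a1, an activity-regulated gene that neurons also express, at 48.3 to 95.2 CPM in TAF15 OE and 88.7 to 133 CPM in Control; without it the sums were 149, 105 and 142 CPM in TAF15 OE 1, 2 and 3, against 87.0, 95.6 and 103 CPM in Control 1, 2 and 3. Their part in the Ccl2 and Ccr2 values was not tested. Ccl7, its neighbour and another Ccr2 ligand, had 10, 9 and 9 counts in TAF15 OE 1, 2 and 3, against 1, 1 and 0 in Control 1, 2 and 3, even among libraries but below the filter.

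**Figure D2:**
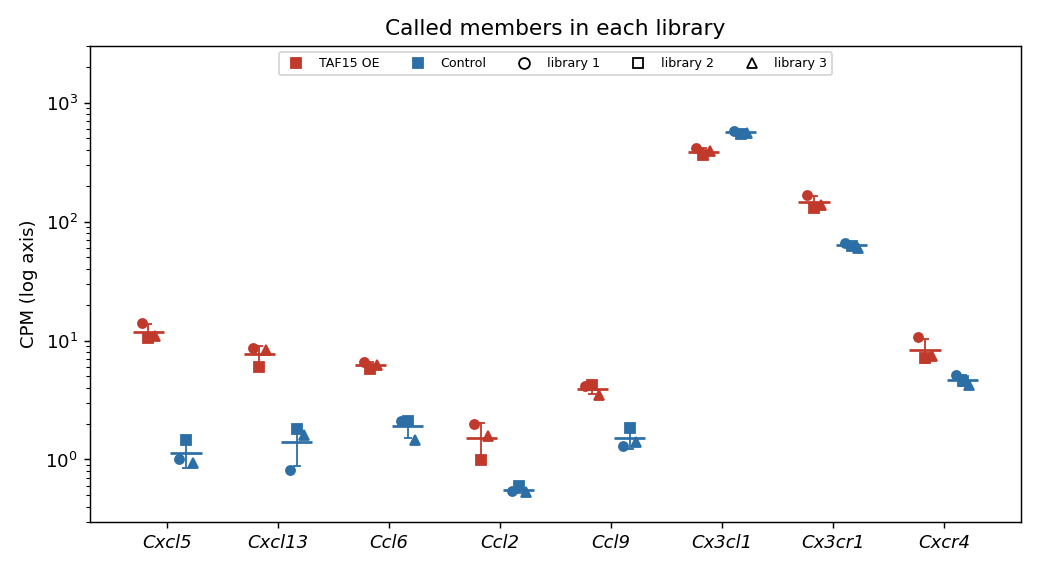
CPM on a log axis of 8 of the 9 called members in each library (red TAF15 OE, blue Control; circle, square and triangle are libraries 1, 2 and 3; horizontal lines are means, vertical lines 1 SD). In all 8 the groups do not overlap, and Cx3cl1 is the member with TAF15 OE below Control.

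Fractalkine and its receptor were the pair with both partners called, in opposite directions. Cx3cl1, a membrane-bound ligand that neurons make and can shed, was the most abundant member per length in both groups. It had 6455, 5506 and 6422 counts in TAF15 OE 1, 2 and 3, against 8499, 8297 and 8420 in Control 1, 2 and 3, so every TAF15 OE library was below every Control library. It averaged 388 ± 25.3 CPM in TAF15 OE and 563 ± 13.6 CPM in Control, 1.45-fold lower (log2 fold change -0.54, SE 0.07, edgeR adjusted p = 9.86e-04). The value lay between -0.61 and -0.50 with each library left out in turn.

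Cx3cr1, the receptor that marks microglia in the brain, went the other way. It had 2615, 1980 and 2265 counts in TAF15 OE 1, 2 and 3, against 982, 948 and 901 in Control 1, 2 and 3. The groups were far apart, with TAF15 OE 1 highest, and averages were 145 ± 19.5 CPM in TAF15 OE and 63.2 ± 3.34 CPM in Control, a 2.29-fold rise (log2 fold change 1.20, SE 0.10, edgeR adjusted p = 5.86e-05). Per length, the ratio of Cx3cl1 to Cx3cr1 FPKM (counts scaled by gene length and library total) was 2.83, 3.19 and 3.25 in TAF15 OE 1, 2 and 3, against 9.92, 10.03 and 10.7 in Control 1, 2 and 3. Cx3cl1 made up 29.9 to 35.3% of the summed member FPKM in TAF15 OE and 50.6 to 52.0% in Control. Cx3cr1 kept a like share of classical receptor FPKM, 68.7 to 78.6% in TAF15 OE and 74.2 to 75.7% in Control. Its exons overlap those of Gm33858 on the opposite strand, and no source used here states the strandedness.

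**Figure D3:**
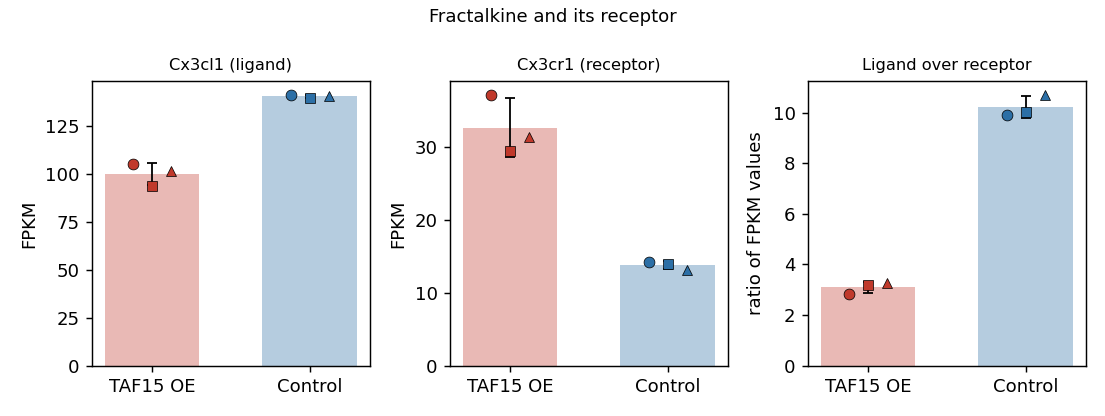
FPKM of Cx3cl1 and of Cx3cr1, and their ratio, by library (points; circle, square and triangle are libraries 1, 2 and 3), with group means as bars and 1 SD as lines, TAF15 OE left of Control. Cx3cl1 is lower and Cx3cr1 higher in TAF15 OE, and the ratio is 3.09 ± 0.227 in TAF15 OE and 10.2 ± 0.428 in Control.

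The called markers of the cells that make each partner moved the same way as it did. All 20 microglia markers, a list that does not include Cx3cr1, were higher without overlap and 18 were called (Trem2, Cd68 and Tyrobp were among those of smallest p), with summed levels of 1298 to 1996 CPM in TAF15 OE and 664 to 723 CPM in Control. Of 14 excitatory neuron markers 8 were called lower (among them Pou3f1, Neurod6, Fibcd1 and Slc17a7) and none higher, with summed levels of 5093 to 6314 CPM in TAF15 OE and 7388 to 9116 CPM in Control. Camk2a alone made up 3008 to 3894 CPM of that sum in TAF15 OE and 4479 to 5761 CPM in Control. The uncalled neuron markers had log2 fold changes from -0.71 (Wfs1) to -0.03 (C1ql2). Of the other lists, 7 of 10 astrocyte, 7 of 10 oligodendrocyte, 7 of 13 endothelial and mural, 2 of 10 leptomeningeal and 1 of 8 perivascular macrophage markers were called higher and 0 lower. Among all tested genes 9.32% were called higher and 5.95% lower, and 19.1% were higher without overlap. In tissue RNA, fewer cells of a type and less RNA per cell cannot be told apart, and the part of these markers in the Cx3cl1 and Cx3cr1 results was not tested.

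Cxcr4 was also among the receptors called higher. Cxcr4, the signalling receptor for Cxcl12, stood at 10.7, 7.17 and 7.34 CPM in TAF15 OE 1, 2 and 3, against 5.16, 4.58 and 4.198 CPM in Control 1, 2 and 3 (1.81-fold, log2 fold change 0.85, SE 0.20, adjusted p = 0.0169). The groups did not overlap, and TAF15 OE 1 was the highest library. The Cxcr4 call did not hold without TAF15 OE 1 (adjusted p = 0.0553), Control 2 (0.0636) or Control 3 (0.0662).

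Cxcl12 and the tested ones of a set of CC ligands known from activated immune cells were not called. Ccl3, a myeloid CC ligand, had 0.511, 2.104 and 1.34 CPM in TAF15 OE 1, 2 and 3, against 0.543, 0.663 and 0.666 CPM in Control 1, 2 and 3, and was the tested ligand with TAF15 OE 1 as its low library. Without TAF15 OE 1 it was called (log2 fold change 1.42, edgeR adjusted p = 0.0364). Ccl5, made by T and NK cells, did the reverse, at 12.97, 1.58 and 3.34 CPM in TAF15 OE 1, 2 and 3, against 1.49, 2.65 and 4.80 CPM in Control 1, 2 and 3. Its log2 fold change of 1.00 (adjusted p = 0.561) became -0.30 without TAF15 OE 1. Ccl4, below the filter and so not tested, had 8, 8 and 15 counts in TAF15 OE 1, 2 and 3, against 3, 1 and 5 in Control 1, 2 and 3, without overlap. Cxcl12, made by stromal and vascular cells, stood at 78.2, 58.8 and 62.1 CPM in TAF15 OE 1, 2 and 3, against 53.9, 57.8 and 64.8 CPM in Control 1, 2 and 3, and the groups overlapped (log2 fold change 0.17, adjusted p = 0.352).

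Matching ligands with receptors gave 38 pairs with both partners among the members, of which 10 had both partners tested. In 0 pairs were both called higher, and 1 pair, Cx3cl1 with Cx3cr1, was called in opposite directions. In 4 pairs the ligand rose and the receptor was too scarce to test (Cxcl5 with Cxcr2, Cxcl13 with Cxcr5, and Ccl6 and Ccl9 with Ccr1). In 1 pair, Ccl2 with Ccr2, the ligand was called and the receptor tested but not called. In the pair of Cxcl12 with Cxcr4, the receptor was called and the ligand tested but not called.

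The interferon-inducible ligands of Cxcr3, which attract activated T cells, were carried mainly by TAF15 OE 1 and were not called. Cxcl9 had 10.9, 1.51 and 3.70 CPM in TAF15 OE 1, 2 and 3, against 0.815, 0.995 and 1.07 CPM in Control 1, 2 and 3, without overlap (log2 fold change 2.47, SE 0.78, edgeR adjusted p = 0.0943). Cxcl10 had 25.8, 8.09 and 13.9 CPM in TAF15 OE 1, 2 and 3, against 4.35, 7.36 and 10.1 CPM in Control 1, 2 and 3, with overlap (1.13, SE 0.54, adjusted p = 0.247). TAF15 OE 1 held 66.9% of the Cxcl9 counts of TAF15 OE and 53.4% of those of Cxcl10. Cxcl9 was called without TAF15 OE 1 at a smaller change (log2 fold change 1.42, adjusted p = 0.0361) and without TAF15 OE 2 (adjusted p = 0.0099). DESeq2 on all libraries also called Cxcl9. Exons of Cxcl10 overlap Art3 on the opposite strand. Its promoter is shown for its interferon-response letters, GAAA, any 2 bases, then GAAA, on either strand, in capitals, at chr5:92349060-92349119, minus strand, 230 to 171 bases before the start.
Cxcl10: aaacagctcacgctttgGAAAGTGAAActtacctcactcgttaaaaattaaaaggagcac
Those letters were in 3 of 44 member promoters (Ccl19, Cxcl10 and Cxcl14), or 6.82%, against 3.49% of all promoters.

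Receptors of T cells were also highest in TAF15 OE 1. That was not particular to them. Among the TAF15 OE libraries, 13 of 17 tested ligands and the receptors Cx3cr1 and Cxcr4 were highest in TAF15 OE 1 too. Cxcr3 stood at 3.00, 0.986 and 1.52 CPM in TAF15 OE 1, 2 and 3, against 0.475, 0.796 and 0.800 CPM in Control 1, 2 and 3 (log2 fold change 1.40, edgeR adjusted p = 0.0614). Cxcr6, the receptor for Cxcl16 on tissue T cells, stood at 3.96, 1.31 and 2.25 CPM in TAF15 OE 1, 2 and 3, against 0.272, 0.398 and 1.27 CPM in Control 1, 2 and 3 (1.94, adjusted p = 0.0528). Both were highest in TAF15 OE 1, and for neither did the groups overlap, by a narrow margin. Cxcl16 stood at 20.6, 5.46 and 6.56 CPM in TAF15 OE 1, 2 and 3, against 2.17, 3.25 and 3.60 CPM in Control 1, 2 and 3, also without overlap (1.85, adjusted p = 0.120), and was called at a smaller change without TAF15 OE 1 (0.97, adjusted p = 0.0227). Its exons overlap Zmynd15 on the opposite strand. Without TAF15 OE 2, Cxcr3 (adjusted p = 0.0477) and Cxcr6 (0.0443) were called, and Cxcr6 also without Control 3 (0.0205). DESeq2 on all libraries called Cxcr6 and Cxcl16. T and NK cell markers had summed levels of 48.5, 18.5 and 22.2 CPM in TAF15 OE 1, 2 and 3, against 8.56 to 10.01 CPM in Control. Of 18 listed, 10 were tested and 8 called higher, against 9.32% of all tested genes (Trac, Nkg7, Cd3g and Cd3e had the smallest p). Some passed the filter through TAF15 OE alone, as Cd3e had 6, 4 and 6 counts in Control 1, 2 and 3. Their part in the Cxcr3 and Cxcr6 values was not tested.

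**Figure D4:**
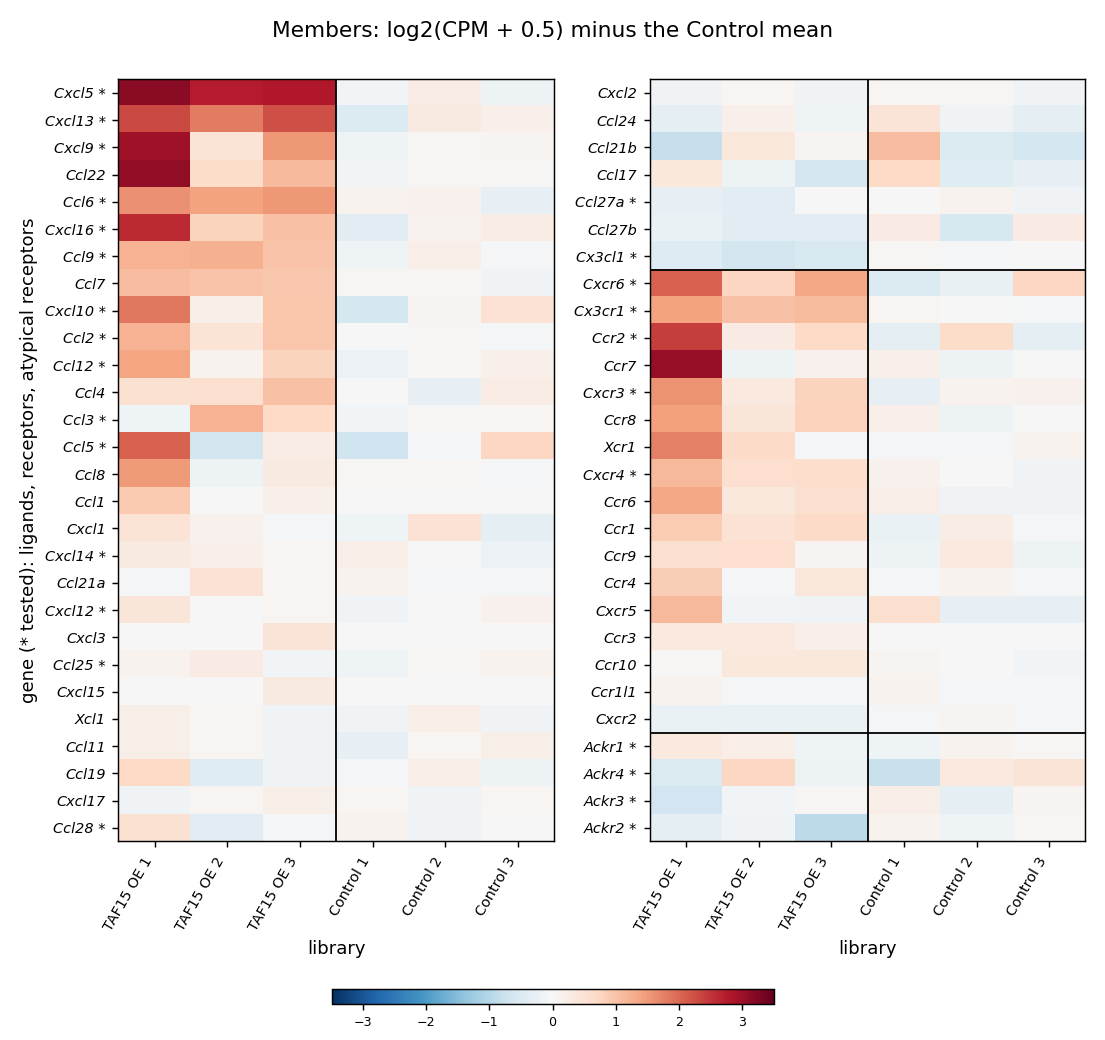
56 of the 57 members in every library, as log2(CPM + 0.5) minus the Control mean, with TAF15 OE libraries left of Control; lines part ligands, receptors and atypical receptors, and an asterisk marks a tested gene. Cxcl5, Cxcl13 and Ccl6 are high in all 3 TAF15 OE libraries, whereas Cxcl9, Ccl22, Ccl5, Ccr2 and Ccr7 are highest in TAF15 OE 1.

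The 30 members below the filter held 2 to 101 counts in all, and among them Ccl22, Ccr7 and Xcr1, singled out after their values were seen, were highest in TAF15 OE 1. Ccl22, a dendritic cell and macrophage ligand of Ccr4, had 75, 7 and 14 counts in TAF15 OE 1, 2 and 3, against 1, 2 and 2 in Control 1, 2 and 3. Ccr7, which takes mature dendritic cells to lymph nodes, had 66, 0 and 2 counts in TAF15 OE 1, 2 and 3, against 2, 0 and 1 in Control 1, 2 and 3. Xcr1, the receptor of cross-presenting dendritic cells, had 20, 5 and 0 counts in TAF15 OE 1, 2 and 3, against 0, 0 and 1 in Control 1, 2 and 3. Ccl22 did not overlap, while Ccr7 rested on TAF15 OE 1 and Xcr1 on TAF15 OE 1 and 2. Dendritic cell markers, a list that includes Xcr1 and Ccr7, had summed levels of 341, 88.0 and 127 CPM in TAF15 OE 1, 2 and 3, against 47.4 to 51.0 CPM in Control. Of 6 tested, 3 were called higher (Itgax, Batf3 and Siglech, the last also on the microglia list), against 9.32% of all tested genes. Flt3 (log2 fold change -0.44, lower without overlap), Zbtb46 (0.16) and H2-Ab1 (3.32) were not called. H2-Ab1 alone made up 243 CPM of the sum in TAF15 OE 1, and without it the sums were 97.9, 60.7 and 68.5 CPM in TAF15 OE 1, 2 and 3, against 36.6 to 40.7 CPM in Control. Their part in these counts was not tested.

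Of the 30 members below the filter, 7 were higher in TAF15 OE without overlap: Ccl22, Ccl4, Ccl7, Ccr1, Ccr3, Ccr6 and Ccr8. In 1, Cxcr2, TAF15 OE was lower without overlap. The share over all genes below the filter was not computed, so these counts are a description only. Ccr8 had 16, 4 and 8 counts in TAF15 OE 1, 2 and 3, against 2, 0 and 1 in Control 1, 2 and 3, Ccr6 had 14, 3 and 5 against 2, 0 and 0, and Ccr3 had 2, 2 and 1 against 0 in each. A count of 0 allows up to 3 counts, so the Ccr3 groups were not told apart. Ccl8 had 34, 5 and 11 counts in TAF15 OE 1, 2 and 3, against 7, 7 and 6 in Control 1, 2 and 3, and overlapped. Fitted without any filter, edgeR called 17 members higher, where 6.52% of all 30821 genes were, and these included 5 of the scarce ones: Ccl22 (log2 fold change 4.07, adjusted p = 1.13e-08), Xcr1 (4.13, 0.00259), Ccl7 (3.48, 0.00359), Ccr8 (2.97, 0.00939) and Ccr6 (3.14, 0.0229). Ccr7 was not (4.26, SE 2.53, adjusted p = 0.507). The remaining scarce ligands were Ccl1, Ccl11, Ccl17, Ccl19, Ccl21a, Ccl21b, Ccl24, Ccl27b, Cxcl15, Cxcl17 and Xcl1, and the remaining receptors Ccr1l1, Ccr4, Ccr9 and Ccr10, each with 0 to 20 counts in any library and overlapping groups. Ccl21a, Ccl21b, Ccl27a and Ccl27b have near-identical copies, so their counts are uncertain.

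The other tested ligands and the 4 atypical receptors gave no call. Cxcl14, which neurons and epithelia make, stood at 112, 101 and 91.6 CPM in TAF15 OE 1, 2 and 3, against 105, 88.4 and 76.9 CPM in Control 1, 2 and 3 (log2 fold change 0.17, edgeR adjusted p = 0.370). Ccl27a had -0.23 (adjusted p = 0.205), Ccl25 0.13 (0.658), Ccl28 0.09 (0.853) and Ccl12, another Ccr2 ligand, 1.04 (0.0868) on the log2 scale, and the groups overlapped for each. Ccl12 was called without TAF15 OE 2 (adjusted p = 0.0391). Among the scavengers, Ackr1, an endothelial and red-cell receptor, had 0.14 (adjusted p = 0.525), Ackr3, which clears Cxcl12, -0.23 (0.519), Ackr2, which degrades inflammatory CC chemokines, -0.59 (0.334) and Ackr4, which clears Ccl19 and Ccl21, 0.02 (0.985). All 4 overlapped between the groups. Summed FPKM of the 4 was 28.8, 28.9 and 23.6 in TAF15 OE 1, 2 and 3, against 22.9, 26.1 and 25.9 in Control 1, 2 and 3, while that of the 18 receptors was 54.1, 37.4 and 40.5 in TAF15 OE 1, 2 and 3, against 19.0, 18.4 and 17.7 in Control 1, 2 and 3. Exons of Ackr1 overlap Cadm3 on the same strand, so these counts may hold reads of both, and those of Ccl25, Ccl27a and Ackr4 overlap Elavl1, Il11ra1 and Acad11 on the opposite strand.

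Per length, the order of the members changed little at the top. By mean FPKM, Cx3cl1 (100.1 in TAF15 OE, 141 in Control) and Cxcl14 (56.3 in TAF15 OE, 48.4 in Control) came first and second in both groups. Cx3cr1 was the third in TAF15 OE at 32.6 FPKM and the fifth in Control at 13.8 FPKM. There it lay beside Ccl27a (12.5 in TAF15 OE, 14.1 ± 1.36 in Control), from which it did not differ beyond the spread in Control. Summed ligand FPKM overlapped between the groups, at 207 to 269 in TAF15 OE and 227 to 237 in Control, whereas without Cx3cl1 and Cxcl14 it was 102, 56.8 and 70.6 in TAF15 OE 1, 2 and 3, against 40.6, 43.7 and 45.1 in Control 1, 2 and 3.

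Neighbouring members did not all share a direction. Ccl22 and Ccl17 flank Cx3cl1 within 66.4 kb of chromosome 8, and every TAF15 OE library had more Ccl22 counts, and fewer Cx3cl1 counts, than every Control library. Ccl17, the other ligand of Ccr4, had 11, 5 and 2 counts in TAF15 OE 1, 2 and 3, against 15, 3 and 4 in Control 1, 2 and 3.

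Genes that act downstream of, or beside, the family were counted on lists chosen by function. Of 51 tested genes of chemokine receptor signalling, 22 were called higher and 3 lower (median log2 fold change 0.28), where 9.32% of all tested genes were higher and 5.95% lower. The list's summed level did not separate the groups, at 5427 to 6098 CPM in TAF15 OE and 5859 to 6248 CPM in Control. Those of smallest p were Fgr (4.33), Vav1 (1.21), Wasf2 (0.64) and Rgs14 (-0.55). Of 11 tested chemoattractant relatives 6 were higher and 0 lower, with the complement receptors C3ar1 (1.82) and C5ar1 (1.13), the chemerin receptor Cmklr1 (1.12) and S1pr1 (0.40). Of 19 NF-kappaB genes 6 were higher and 0 lower, among them Birc3 (1.53), Bcl3 (1.70), Nfkb1 (0.56) and Rela (0.46). Of 15 interferon regulators 4 were higher, Ifngr1 (0.99), Irf8 (1.54), Irf5 (1.15) and Ifnar2 (0.41), and Ifngr2 was lower (-0.32). In the same libraries 18 of 20 microglia markers were called higher, and their part in these counts was not tested.

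**Figure D5:**
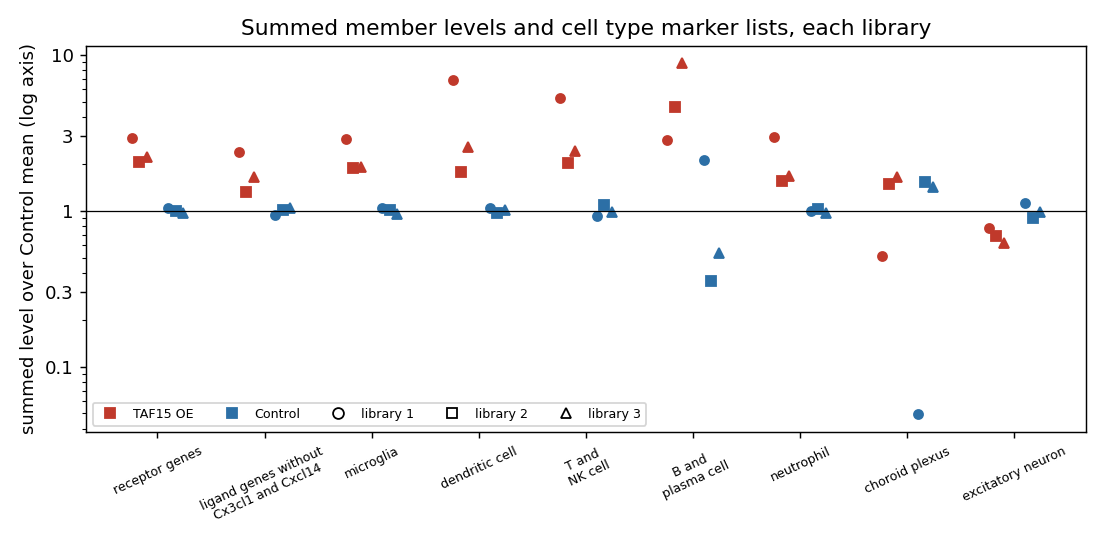
Summed level of each gene list over its Control mean, by library, on a log axis (FPKM for receptor and ligand genes, CPM for marker lists; circle, square and triangle are libraries 1, 2 and 3), TAF15 OE left of Control. Receptor genes, microglia, dendritic and T and NK cell lists are above Control in all 3 TAF15 OE libraries, most in TAF15 OE 1, and choroid plexus is low in Control 1 and TAF15 OE 1.

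In the authors' deposited table, 12 members had an adjusted p below 0.05 and a higher value and 1 a lower value, with 8.51% higher and 7.53% lower among the 17059 genes given an adjusted p there, and the adjusted p of 26 members was NA. The authors' deposited table gave Cxcl5 a log2 fold change of 3.35 (adjusted p = 9.1e-25), Cx3cr1 1.17 (7.78e-23) and Cx3cl1 -0.57 (8.32e-11). The authors' deposited table also called Cxcl9, Cxcl16, Cxcr6, Ccr2 and Ccl22, and did not call Ccl2 (adjusted p = 0.0848). In each of those 5, TAF15 OE 1 was the highest library, as it was among the TAF15 OE libraries in 13 of 17 tested ligands.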

How the data were processed

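The transcriptome of 6 hippocampi was sequenced with a TruSeq kit, per the labels. The submitters' processing notes list build GRCm38 with TopHat2, HISAT2 2.1.0, Bowtie2 2.2.3 and CASAVA; what each did, the counter and the strandedness are not given in the sources used here. Whole-number counts per gene make up the deposited count table. The deposited FPKM equal count over length and total within a relative deviation of 3.89e-09 in 8926 genes. The authors' comparison table adds a normalised signal, a fold change (ratio and log2 columns, both the authors'), and p-values, raw and adjusted, from a test the authors do not name there.

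Counts were fitted in edgeR 4.0.16 (R 4.3.3) by glmQLFit and glmQLFTest on the 6 libraries, with TMM scaling and filterByExpr (minimum count 10, total 15), leaving 16758 genes. Alternatives used DESeq2 1.42.0 and limma 3.58.1. On data simulated with 1 common spread for all genes (biological coefficient of variation 13.1%), 91.9% of genes changed by a log2 fold change of 1 were called. Of 201 calls there, 11 were false. Scarce genes and genes of wider spread, as many members are, were not simulated apart, so this share does not give their recovery. Members and lists were chosen with earlier results of these data known. Named were Taf15, every called member but 1, which is not reported here though the counts include it, the other members with a level, change or count, and up to 4 genes of smallest p per list. Same-numbered libraries had correlated deviations of 0.126, 0.0776 and 0.0871, and differently numbered ones at most 0.0404. The numbers were not taken as pairs because the design states no pairing. No libraries were duplicates (smallest chi-square per degree of freedom 5.15). Exon overlaps come from GENCODE M21. P-values cover the spread between 3 mice a group.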

Additional observations from a re-analysis of the deposited data

How the results depend on the processing

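Of the 27 tested members, 0 of the 9 called ones changed direction under any alternative, and 7 stayed called under all 17, among them Cxcl5, Cxcl13, Ccl6, Ccl9, Cx3cl1 and Cx3cr1. Members called higher numbered 17 without a filter, with 8 ligands and 9 receptors. DESeq2 called 11 members higher, 5 of them receptors, adding Cxcl9, Cxcl16, Cxcr6 and Ccr2 and leaving out Ccl2. Members called lower numbered 0 at an absolute log2 fold change of at least 1. Over all genes, calls higher were 496 on log2(FPKM + 1) with no filter and 534 at a log2 fold change of at least 1, and calls lower were 1568 without a filter, 449 and 473 on FPKM with pseudocounts of 1 and 0.1, 173 on FPKM with no filter and 23 at a log2 fold change of at least 1. Scaling by total counts alone gave 1838 higher and 716 lower, so 72.0% of calls were higher, against 61.0% with TMM. With 1 library left out, genes higher were 877 to 1293 and lower 365 to 1208, members higher 6 to 13, ligands higher 4 to 8 and receptors higher 2 to 5. Uncalled members that changed sign were Ackr1 (-0.069), Ackr3 (0.054), Ackr4 (-0.090), Ccl28 (-0.20), Ccl5 (-0.62) and Cxcl12 (-0.048) without TAF15 OE 1 and Control 1 together, Ccl28 and Ccl5 without TAF15 OE 1, and Ackr4 without TAF15 OE 2 or Control 1 (-0.39), with DESeq2 size factors (-0.00041) and with no filter (-0.0051). With 1 library left out these ranged over -0.26 to 0.29 for Ccl28, -0.30 to 1.52 for Ccl5 and -0.69 to 0.34 for Ackr4. The causes were not tested. The replicate block gave 10 members higher, adding Cxcl9 (edgeR adjusted p = 0.0479) and Cxcr6 (0.0267), 1 lower, and 1904 genes higher and 1387 lower; every TAF15 OE library correlated best with its own number, a hint from the data and not the design. Depth limits the 30 scarce members.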
